A study of Mus musculus with 4 samples.

Results

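The 10 genes described here encode proteins of the photoreceptor ribbon synapse and of the matrix in its cleft. They are *Cacna1f*, *Cacna2d4* and *Cabp4* of the presynaptic calcium channel, *Ctbp2*, *Bsn*, *Pclo*, *Rims2* and *Unc13b* of the ribbon and active zone, and *Egflam* and *Dag1* of the dystroglycan complex. Members were taken by gene symbol from the gene table, where each symbol had 1 row, so that the set holds 10 of 22095 loci. Their level was compared between retinas of *rd7* mice, which carry a mutation in *Nr2e3*, and wild-type retinas. *Nr2e3* encodes a nuclear receptor that represses cone genes in developing rods, and the wild-type animals carry no mutation in it. There were 2 RNA-seq libraries per genotype, all from animals labelled C57BL/6J at 3 weeks of age, and each library pooled 8 whole retinas from 2 female and 2 male mice. Whether mutants and controls were littermates is not given in the sources used here.

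Rods and cones release glutamate from a terminal that holds a synaptic ribbon, a plate that tethers vesicles next to L-type calcium channels. These channels open in darkness and drive continuous release onto bipolar and horizontal cells. Ribbon and active zone proteins hold the channels and the vesicles together, while pikachurin in the cleft links dystroglycan of the terminal to the dendritic tips of bipolar cells. Bipolar cells also form ribbon synapses, and several of these genes are active in neurons outside the photoreceptors. Loss of the channel subunits or of *Cabp4* disturbs transmission from rods and cones to bipolar cells in mice and humans.

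The deposited FPKM (fragment numbers divided by transcript length and sequencing depth) were compared with limma on log2(FPKM + 0.1), two-sided, over the 12655 genes whose mean FPKM reached 1, with Benjamini-Hochberg adjustment and an FDR of 5%. Because each library is a pool, the spread behind the p-values is one between pools and not between single animals. In limma the variance of each gene is also drawn towards that of genes at a similar level. A p-value therefore does not rest on the gene's own spread alone. The depth behind the FPKM was estimated at 3.50e+07 to 3.60e+07 reads per library, which is not a count of the reads mapped. The members rested on an estimated 1655 to 26956 reads each, for which counting error alone would be 2.46% to 0.609%. These read numbers use the length of all annotated exons of a gene. They can be too high, and the error too low, for genes with several transcripts. *Nr2e3* was at 2493 and 1589 FPKM in the *rd7* libraries and at 385 and 394 in wild-type, and FPKM does not show whether these transcripts were normally spliced. The summed FPKM of 6 rod markers was 7716 to 8428 in *rd7* against 10545 to 10756 in wild-type, with 3 lower (*Gnat1* and *Nrl* among them) and *Sag* and *Pde6b* not called. For 10 cone markers the sums were 4517 to 4809 against 1453 to 1497, with 8 higher, *Pde6h*, *Gnb3*, *Gnat2* and *Opn1sw* among them. *Opn1mw* (log2 fold change -0.16) and *Arr3* (0.08) were not called. The sums were 668 to 817 against 553 to 585 for 9 bipolar cell markers (7 higher, with *Cabp5* and *Trpm1* higher and *Pcp2* not called). They were 215 to 232 against 190 to 195 for 5 amacrine cell markers (4 higher, *Gad1*, *Slc32a1* and *Gad2* among them, and *Slc6a9* not called). Of all genes tested, 37.6% were higher. After scaling each library by the median ratio of its genes, 8 cone, 5 bipolar and 0 amacrine markers were higher, beside 19.7% of all genes. With that scaling 1 cone marker was lower. For 7 pigment epithelium markers the sums were 43.1 to 47.6 against 17.6 to 26.5 (3 of 4 tested higher, namely *Ttr*, *Rpe65* and *Stra6*, with *Mitf* not called). Markers of all 5 cell types were above 0, and the part of cell composition in the results below was not tested. In whole retina, fewer cells of a type and less RNA per cell cannot be told apart.

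The 10 genes did not change in 1 direction. In *rd7* retinas *Dag1*, *Ctbp2*, *Egflam* and *Cacna2d4* rose and *Cabp4*, *Unc13b* and *Cacna1f* fell, although *Egflam* and *Cacna2d4* lost their call under other scalings and changed sign when the length of the locus was corrected for. *Bsn*, *Pclo* and *Rims2* were not called. Thus 4 of 10 members were higher, beside 37.6% of all genes tested, and 3 of 10 were lower, beside 8.8%. In either direction, 7 of 10 members and 46.4% of all genes were called. The median log2 fold change of the 10 genes was -0.031 and that of all genes was 0.15. With 2 libraries per genotype, values that do not overlap are common, and they were found for 7 of the 10 members beside 76.6% of all genes.

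**Figure D1:**
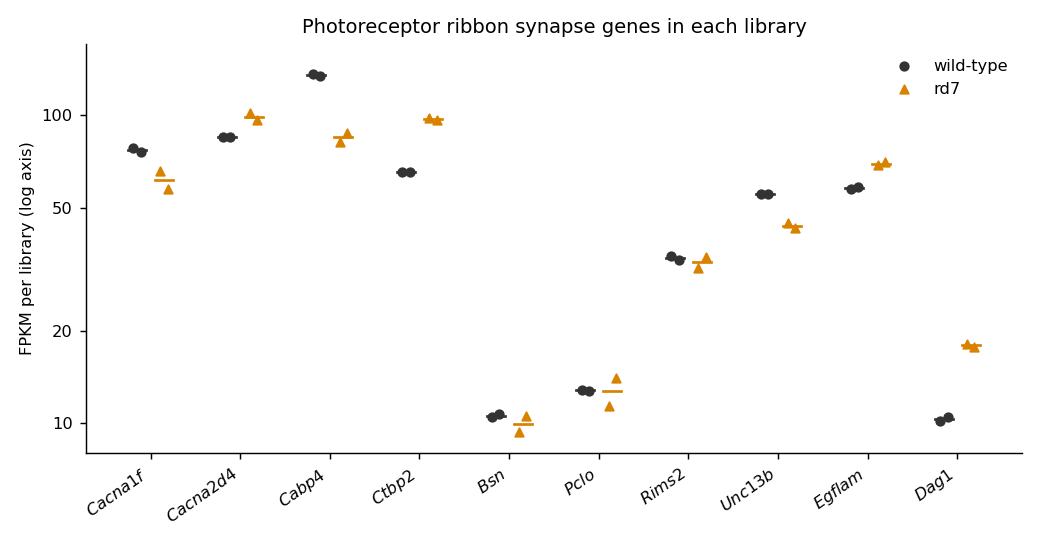
FPKM of the 10 genes in each library on a log axis, with 1 point per library (circles, 2 wild-type; triangles, 2 *rd7*). The *rd7* points lie apart from the wild-type points for 7 genes and overlap them for *Bsn*, *Pclo* and *Rims2*.

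The deposited FPKM placed most genes slightly higher in *rd7*. Scaling each library by the median ratio of its genes took the all-gene median from 0.15 to -0.0049, and 39.3% of all genes were then called, 19.7% higher and 19.6% lower. Under this scaling 2 members were higher (*Ctbp2* and *Dag1*) and 4 were lower (*Cabp4*, *Unc13b*, *Cacna1f* and *Rims2*). Quantile normalization gave 2 members higher and 3 lower, beside 18.6% and 19% of all genes (37.6% in either direction). After correction for GC content and exonic length 2 were higher and 5 lower, beside 12.4% and 15.1% (27.5% in either direction). The values relative to the bulk of genes are therefore given beside the values as deposited.

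Among the calcium channel genes, the pore-forming subunit and its calcium sensor were lower in *rd7*. The auxiliary subunit was higher as deposited, but not relative to the bulk of genes. *Cacna1f* (chrX:7184229-7212322, mm9, plus strand) encodes the pore of the L-type channel of photoreceptor terminals, and mutations in it cause congenital stationary night blindness. Its level was 65.9 and 57.4 FPKM in the *rd7* libraries and 78.1 and 75.8 in wild-type, so that both *rd7* libraries lay below both wild-type libraries. The means were 61.6 ± 6.06 and 77.0 ± 1.63 FPKM (SD, n = 2 each). *Cacna1f* fell by 0.32 on the log2 scale (SE 0.07, 95% interval -0.51 to -0.14, adjusted p = 0.0178 from limma), and by 0.48 after median-ratio scaling. This call was lost without wild-type replicate 1 or 2 (-0.30 and -0.34), where fewer of all genes were called than with every library. It was also lost, at the same sign, with no filter on low FPKM (limma adjusted p = 0.141). In that fit 2249 of 21833 genes were higher and 455 lower.

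*Cabp4* (chr19:4135423-4139609, minus strand) encodes a calcium-binding protein that binds the channel and shifts its opening to more negative voltages. It had 81.9 and 87.6 FPKM in *rd7* and 136 and 134 in wild-type, and the genotypes did not overlap. The means were 84.8 ± 3.98 and 135 ± 1.59 FPKM (SD, n = 2 each), a level 1.59-fold lower in *rd7*. *Cabp4* was lower by a log2 fold change of -0.67 (SE 0.05, 95% interval -0.80 to -0.54, limma adjusted p = 0.000952), and only 1.75% of all genes tested had a lower log2 fold change. It was called lower in all 10 refits, from -0.83 to -0.67, and in all 4 fits with 1 library left out.

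*Cacna2d4* (chr6:119186544-119302425, plus strand) encodes the auxiliary subunit that brings the channel to the terminal membrane. Its level was 102 and 96.1 FPKM in *rd7* and 85.2 and 85.1 in wild-type, with no overlap and with wild-type libraries that were nearly equal. As deposited, *Cacna2d4* was higher by 0.22 on the log2 scale (SE 0.05, 95% interval 0.09 to 0.34, limma adjusted p = 0.0182), but the log2 fold change was 0.06 after median-ratio scaling (adjusted p = 0.349) and -0.080 after correction for locus length (adjusted p = 0.276). The call was also lost without wild-type replicate 1 or 2 (0.22 and 0.21) and with no filter on low FPKM (limma adjusted p = 0.0755). Fewer of all genes were called in these fits as well. *Cacna2d4* therefore rose as deposited, but not relative to the bulk of genes. The locus overlaps *Lrtm2* on the opposite strand without a shared exonic base.

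Ratios within a library do not depend on a single scaling factor per library. They do depend on quantile normalization and on the GC and length corrections, which move the genes of a library by different amounts. The ratios given are of FPKM as deposited. The ratio of *Cacna2d4* to *Cacna1f* was 1.54 and 1.67 in *rd7* and 1.09 and 1.12 in wild-type, so that the auxiliary subunit stood further above the pore in both *rd7* libraries. For *Cabp4* to *Cacna1f* the ratio was 1.24 and 1.53 in *rd7* and 1.74 and 1.77 in wild-type. *Cacnb2*, the beta subunit of these channels, stood at 0.594 and 0.739 of *Cacna1f* in *rd7* and at 0.469 and 0.494 in wild-type. A larger shift was seen against *Cabp5*, a related calcium-binding protein of bipolar cells, since the ratio of *Cabp4* to *Cabp5* was 1.25 and 1.36 in *rd7* and 3.12 and 2.92 in wild-type.

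The ribbon gene *Ctbp2* rose in *rd7* retinas. *Ctbp2* (chr7:140178694-140315166, minus strand) gives rise both to CtBP2, a transcriptional corepressor, and, from a start inside the gene, to RIBEYE, the main structural protein of the ribbon. It had 98.0 and 96.6 FPKM in *rd7* and 65.4 and 65.1 in wild-type. The means were 97.3 ± 0.931 and 65.3 ± 0.227 FPKM (SD, n = 2 each), a level 1.49-fold higher in *rd7*, and the genotypes lay far apart compared with the spread within either. The log2 fold change of *Ctbp2* was 0.58 (SE 0.04, 95% interval 0.47 to 0.69, limma adjusted p = 0.000923), with 9.43% of all genes tested at a greater value. *Ctbp2* was called higher in all 10 refits, between 0.27 and 0.58, and in all 4 fits with 1 library left out. Its ratio to the paralog *Ctbp1*, which was not called, was 1.85 in both *rd7* libraries and 1.21 and 1.19 in wild-type.

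The FPKM of *Ctbp2* joins both products. In the GENCODE annotation of this build, transcript Ctbp2-001 starts at position 140315050 and codes for 1335 bases in 11 exons, of which 58 lie in its first coding exon. Transcript Ctbp2-004 starts at position 140206931, 108.2 kb inside the locus, and opens with an exon of 1731 bases that holds 1687 of its 2964 coding bases. Of their exons, 7 are identical in both transcripts, so that the gene-level value does not separate RIBEYE from CtBP2. The locus also shares 314 exonic bases with an annotated transcript of *Fgfr2* on the same strand. The start region of the RIBEYE transcript is shown because it is the start that is particular to the ribbon, beside the start region of *Cacna1f*, a member that fell. Each sequence gives the 250 bases before the RefSeq start (windows of build GRCm38.p6, each matched exactly once to mm9) on the strand of the gene, at chr7:140206931-140207180 for *Ctbp2* and chrX:7183979-7184228 for *Cacna1f*. The capitals mark GGATTA, the reverse complement of the CRX core motif TAATCC, which begins 121 bases before the *Ctbp2* start.
Ctbp2: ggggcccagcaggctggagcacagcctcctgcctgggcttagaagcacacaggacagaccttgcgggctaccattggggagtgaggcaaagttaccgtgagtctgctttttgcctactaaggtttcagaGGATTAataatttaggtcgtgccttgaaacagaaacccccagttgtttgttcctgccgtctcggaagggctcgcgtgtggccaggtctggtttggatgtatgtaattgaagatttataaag
Cacna1f: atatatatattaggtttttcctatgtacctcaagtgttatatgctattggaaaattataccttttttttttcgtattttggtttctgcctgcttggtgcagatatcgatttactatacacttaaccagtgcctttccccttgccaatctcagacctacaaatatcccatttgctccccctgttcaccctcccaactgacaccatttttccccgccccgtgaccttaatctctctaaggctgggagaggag

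The promoter table held 10 windows of 300 bases for 7 of the members, and *Cabp4*, *Cacna2d4* and *Rims2* had no entry. On both strands, TAATCC was found in 1 of the 10 windows, the one of *Ctbp2* shown above, beside 7.06% of all 32851 windows in the table. The NR2E3 motif AAGTCA was in 0 of the 10 windows (15.1% of all) and the NRL motif TGCTGAC in 0 (4.67% of all). A match of letters is a description of the window and not evidence of binding.

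The giant scaffold proteins of the active zone were not called as deposited. *Bsn* (chr9:107998353-108092714, minus strand) encodes bassoon, which anchors the ribbon to the membrane. Its level was 9.36 and 10.6 FPKM in *rd7* and 10.5 and 10.7 in wild-type, and the ranges overlapped. The log2 fold change of *Bsn* was -0.092 (SE 0.08, 95% interval -0.28 to 0.09, limma adjusted p = 0.351). It was -0.25 both after median-ratio scaling (limma adjusted p = 0.0502) and after quantile normalization (0.0539), just short of a call. *Bsn* passed the test as lower after correction for locus length (-0.37, limma adjusted p = 0.0160). It also did so without *rd7* replicate 2 (-0.18), where more of all genes were called. The exons of *Bsn* share 1813 bases with the noncoding gene *F630040L22Rik* on the opposite strand, and no source used here says that the counting used strand.

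*Pclo* (chr5:14514918-14863459, plus strand) encodes piccolo, a scaffold related to bassoon. It had 11.4 and 14.0 FPKM in *rd7* and 12.8 in both wild-type libraries, so that the *rd7* values lay on either side of the wild-type values. The log2 fold change of *Pclo* was -0.017 (SE 0.10, 95% interval -0.27 to 0.24, limma adjusted p = 0.904). Its sign followed the *rd7* library kept, at 0.13 without replicate 1 and -0.16 without replicate 2, and only the latter was called. The log2 fold change was -0.17 after median-ratio scaling (limma adjusted p = 0.245) and -0.18 after quantile normalization (0.223), without a call. *Pclo* was also called lower after correction for GC content and exonic length (-0.33, limma adjusted p = 0.0469) and for locus length (-0.41, adjusted p = 0.0297). The ratio of *Bsn* to *Pclo* was 0.821 and 0.752 in *rd7* and 0.818 and 0.840 in wild-type, and the genotypes overlapped.

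*Rims2* (chr15:39029878-39513486, plus strand) encodes a protein that links calcium channels to vesicles at the active zone. Its FPKM was 32.0 and 34.6 in *rd7* and 34.8 and 33.9 in wild-type, with overlap. The log2 fold change of *Rims2* was -0.045 (SE 0.06, 95% interval -0.19 to 0.10, limma adjusted p = 0.554). Relative to the bulk of genes it passed the test as lower, at -0.20 after median-ratio scaling (limma adjusted p = 0.0484), -0.27 after correction for GC content and exonic length (0.0249) and -0.47 after correction for locus length (0.00544), whereas quantile normalization gave -0.18 (0.0660). Without *rd7* replicate 1 the value was 0.012. The ratio of *Rims2* to its paralog *Rims1* was 2.83 and 3.26 in *rd7* and 4.97 and 4.50 in wild-type.

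*Unc13b* (chr4:43071856-43277758, plus strand) encodes a protein of the Munc13 family, which primes vesicles for fusion. It had 44.5 and 42.9 FPKM in *rd7* and 55.6 and 55.5 in wild-type, and the genotypes did not overlap. The means were 43.7 ± 1.11 and 55.5 ± 0.0515 FPKM (SD, n = 2 each). *Unc13b* fell by 0.34 on the log2 scale (SE 0.05, 95% interval -0.46 to -0.23, limma adjusted p = 0.00359), and 5.56% of all genes tested had a lower value. It was lower in all 10 refits, between -0.69 and -0.34. It lost its call only without wild-type replicate 1 (-0.34), where fewer of all genes were called as well. The ratio of *Unc13b* to *Unc13a*, the family member common at conventional synapses, was 2.40 and 2.34 in *rd7* and 2.77 and 2.89 in wild-type.

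**Figure D2:**
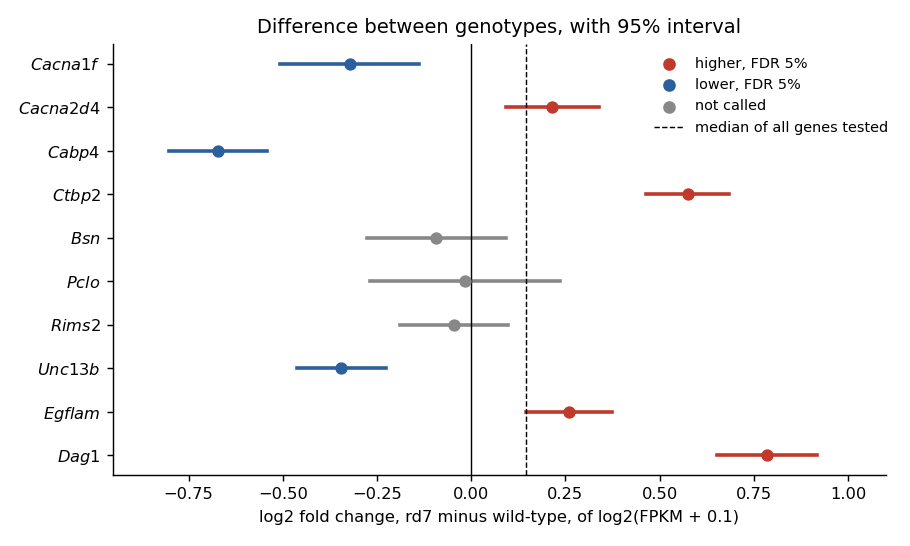
Log2 fold change of the 10 genes (*rd7* minus wild-type, of log2(FPKM + 0.1)) with its 95% interval from limma, coloured by call at an FDR of 5%, and the median of all genes tested, 0.15, as a dashed line. *Dag1* and *Ctbp2* lie above that median, *Cabp4*, *Unc13b* and *Cacna1f* lie below 0, and the intervals of *Egflam* and *Cacna2d4* reach the median of all genes.

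Both genes of the dystroglycan complex were higher in *rd7* as deposited. *Dag1* (chr9:108108289-108166067, minus strand) encodes dystroglycan, the laminin receptor that spans the membrane of the terminal and is also made by Müller glia and blood vessels. Its level was 18.1 and 17.7 FPKM in *rd7* and 10.2 and 10.5 in wild-type. The means were 17.9 ± 0.262 and 10.3 ± 0.201 FPKM (SD, n = 2 each), a level 1.72-fold higher in *rd7* and without overlap. The log2 fold change of *Dag1* was 0.78 (SE 0.05, 95% interval 0.65 to 0.92, limma adjusted p = 0.000714), and 4.26% of all genes tested had a greater value. *Dag1* was called higher in all 10 refits, from 0.54 to 0.79, and in all 4 fits with 1 library left out. *Dag1* lies 15.6 kb from *Bsn*, which was not called, and both are 48.2 to 48.3 Mb from *Nr2e3* on chromosome 9.

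*Egflam* (chr15:7156120-7348304, minus strand) encodes pikachurin, the dystroglycan ligand of the photoreceptor synaptic cleft. It had 68.7 and 70.2 FPKM in *rd7* and 57.5 and 58.6 in wild-type, and the genotypes did not overlap. As deposited, *Egflam* was higher by 0.26 on the log2 scale (SE 0.05, 95% interval 0.14 to 0.37, limma adjusted p = 0.00756), but the log2 fold change was 0.10 after median-ratio scaling (adjusted p = 0.118) and -0.079 after correction for locus length (adjusted p = 0.201). The call was lost without wild-type replicate 1 or 2 (0.24 and 0.27), where fewer of all genes were called as well. *Egflam* shares 198 exonic bases with the noncoding gene *Gm16029* on the opposite strand. The ratio of *Dag1* to *Egflam* was 0.263 and 0.252 in *rd7* and 0.177 and 0.179 in wild-type, so that the receptor had gained on its ligand in both *rd7* libraries.

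FPKM is scaled by transcript length, and the members are set in order by it here. The order takes no account of exonic bases shared with other genes or of transcripts joined in 1 value. Overlap refers only to the values of the 2 libraries per genotype. In wild-type, from high to low mean FPKM, the order was *Cabp4*, *Cacna2d4*, *Cacna1f*, *Ctbp2*, *Egflam*, *Unc13b*, *Rims2*, *Pclo*, *Bsn* and *Dag1*, and of these neighbours only *Bsn* and *Dag1* overlapped in their values. In *rd7* the order was *Cacna2d4*, *Ctbp2*, *Cabp4*, *Egflam*, *Cacna1f*, *Unc13b*, *Rims2*, *Dag1*, *Pclo* and *Bsn*, with an overlap only between *Cacna2d4* and *Ctbp2*. *Cabp4* thus moved from the first to the third place and *Dag1* from the last to the eighth. The ratio of *Cabp4* to *Ctbp2* was 0.836 and 0.906 in *rd7* and 2.08 and 2.06 in wild-type, a reversal of their order in every library. Against *Bsn*, *Ctbp2* stood at 10.5 and 9.16 in *rd7* and at 6.25 and 6.07 in wild-type. The 11 ratios computed were chosen after values had been seen and carry no test.

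**Figure D3:**
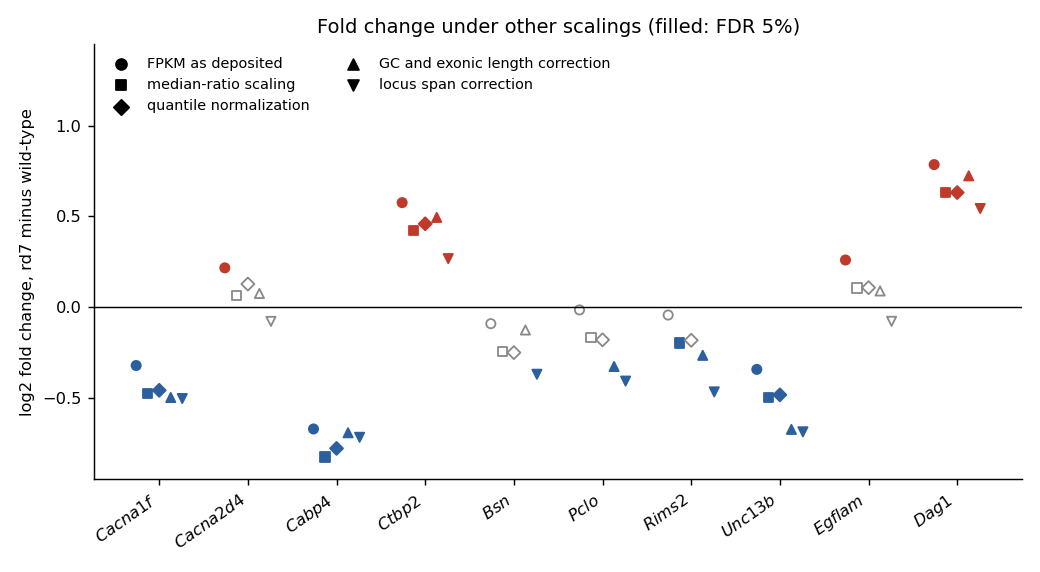
Log2 fold change of the 10 genes (*rd7* minus wild-type) as deposited and under 4 other scalings or corrections, marked by shape, with filled symbols where limma called the gene at an FDR of 5%. *Cabp4*, *Unc13b* and *Cacna1f* are filled below 0 and *Ctbp2* and *Dag1* are filled above 0 throughout, while *Cacna2d4* and *Egflam* are filled only as deposited and lie below 0 after correction for locus length.

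Over all genes tested, the log2 fold change rose with the length of the locus, and the members span much of that range. The median was 0.02 over 3557 genes of under 10 kb, 0.13 over 4017 of 10 to 30 kb, 0.22 over 3345 of 30 to 100 kb, 0.28 over 1025 of 100 to 200 kb and 0.37 over 711 longer genes. The share called higher went from 19.7% in the shortest to 64.6% in the longest. *Cabp4*, of 4.2 kb, is in the shortest class, in which 14.4% of genes were lower. *Unc13b* (205.9 kb) fell although it is in the longest class, in which 3.38% of genes were lower, and *Pclo* (348.5 kb) and *Rims2* (483.6 kb) of the same class were not called. *Dag1* (57.8 kb) was higher in a class with 49.2% of genes higher, and *Ctbp2* (136.5 kb), *Cacna2d4* (115.9 kb) and *Egflam* (192.2 kb) in a class with 54% of genes higher. After correction for locus length, *Ctbp2* and *Dag1* were higher and *Cacna1f*, *Cabp4*, *Unc13b*, *Rims2*, *Pclo* and *Bsn* were lower, beside 16% and 17.8% of all genes (33.9% in either direction). The part of gene length in these differences was otherwise not tested.

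**Figure D4:**
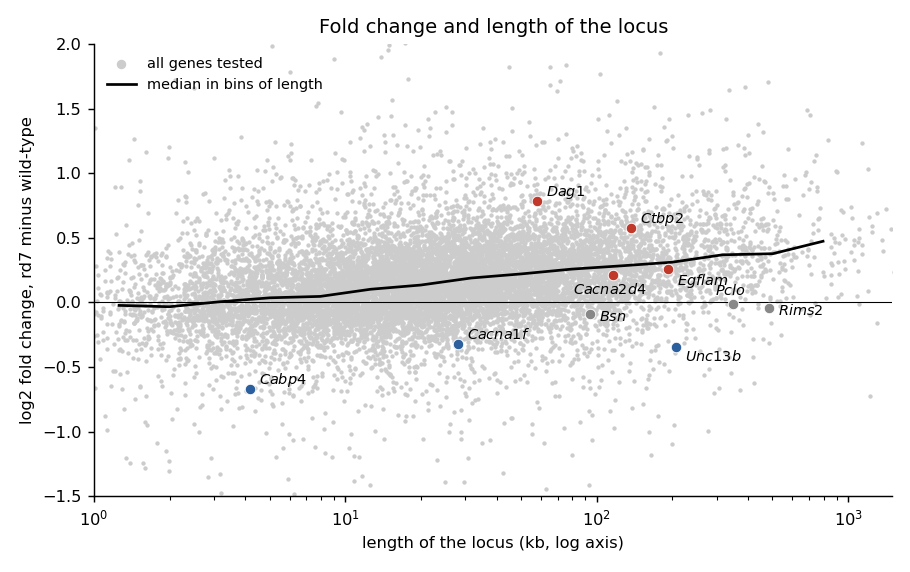
Log2 fold change (*rd7* minus wild-type) against the length of the locus in kb on a log axis, with all genes tested in grey, their median in bins of length as a line, and the 10 members named. The plot leaves out 102 genes beyond the range of the fold axis and 224 beyond that of the length axis, and it shows *Unc13b*, *Pclo* and *Rims2* below the line and *Dag1* above it.

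A further 65 genes of the synapse were read from the same fit in 6 lists, of which 61 were tested, with 28 higher (45.9%) and 2 lower (3.28%) beside 37.6% and 8.8% of all genes. Of the 9 calcium channel and calcium extrusion genes, 4 were higher and none lower (median log2 fold change 0.21). They were *Cacnb4* (0.61, SE 0.07), *Atp2b1* (0.40, SE 0.05), a pump that removes calcium from the terminal, *Cacna2d1* (0.33, SE 0.07) and *Cacna1d* (0.21, SE 0.07), the last 2 with negative values after correction for GC content and exonic length (-0.062 and -0.043) and for locus length (-0.086 and -0.21). *Cacnb2*, at 39.2 and 42.4 FPKM in *rd7* and 36.6 and 37.5 in wild-type, had a value of 0.14 and was not called, and it changed sign with scaling, as did *Cacna2d2*, *Cacna2d3* and *Atp2b2*. After correction for GC content and exonic length none of the 9 was higher and 1 was lower, with *Atp2b1* at 0.040 and *Cacnb4* at 0.23, and after correction for locus length 1 was higher (*Cacnb4*, 0.25) and 4 were lower, with *Atp2b1* at 0.11 and not called. The count of 4 higher was 2 after median-ratio scaling. It was also smaller without wild-type replicate 1 or 2, as it was over all genes.

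Of the 9 other active zone genes, 5 were higher and 1 was lower (median 0.33). *Rims1* (0.59, SE 0.07), *Rimbp2* (0.59, SE 0.08), which links channels to RIM proteins, *Erc1* (0.56, SE 0.09) and *Erc2* (0.43, SE 0.08), scaffolds of the cytomatrix, and *Kif3a* (0.33, SE 0.05), a kinesin motor found on ribbons, were higher. None of these 5 was called after correction for locus length, at 0.15 for *Rims1*, 0.25 for *Rimbp2*, 0.19 for *Erc1*, -0.053 for *Erc2* and 0.12 for *Kif3a*, and 3 genes of the list were then lower. After correction for GC content and exonic length only *Rims1* (0.35) and *Rimbp2* (0.51) were called higher, and *Kif3a* was at 0.0085. *Unc119*, a lipid-binding protein abundant in photoreceptor terminals and inner segments, had 718 and 765 FPKM in *rd7* and 1029 and 1030 in wild-type. It was lower by a log2 fold change of -0.47 (SE 0.06, limma adjusted p = 0.0024). *Ctbp1* (-0.048) and *Unc13a* (-0.089) were not called as deposited but were lower after median-ratio scaling (-0.20 and -0.24), and *Ppfia3* (0.11) changed sign. Without wild-type replicate 1 fewer of the list were called, as over all genes, at a median of 0.31.

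The vesicle and fusion list had 3 of 12 genes higher and 1 lower (median 0.10). *Sv2b*, a vesicle glycoprotein, had 147 and 157 FPKM in *rd7* and 91.0 and 96.7 in wild-type (log2 fold change 0.69, SE 0.06). *Syt1*, the calcium sensor of release, was higher by 0.59 (SE 0.07) and *Cplx3*, a complexin of ribbon synapses, by 0.25 (SE 0.06, and 0.10 without a call after median-ratio scaling). *Slc17a7*, which encodes the vesicular glutamate transporter of photoreceptors, had 406 and 427 FPKM in *rd7* and 507 and 508 in wild-type. It was lower at -0.28 (SE 0.05), and at -0.44 after median-ratio scaling. *Vamp2* (-0.075) was lower after that scaling (-0.23), and *Syp*, *Stx3*, *Snap25*, *Cplx1* and *Cplx2* changed sign under median-ratio scaling without a call. The counts were 2 higher and 3 lower after correction for locus length. More of the list were called without *rd7* replicate 2 and fewer without wild-type replicate 1 or 2, as over all genes.

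In the dystroglycan complex, 5 of 9 tested genes were higher and none was lower (median 0.26), and *Hspg2* was under the limit on mean FPKM. *Sntb1*, a syntrophin, had 5.24 and 5.28 FPKM in *rd7* and 2.73 and 3.08 in wild-type (log2 fold change 0.84, SE 0.09). *Dtna* (0.51, SE 0.08) and *Dtnb* (0.26, SE 0.07), the dystrobrevins, *Sgce* (0.43, SE 0.07), a sarcoglycan, and *Utrn* (0.32, SE 0.08), the utrophin gene, were also higher, with *Dtnb* at -0.022 after correction for GC content and exonic length and *Dtnb* and *Utrn* at -0.090 and -0.11 after correction for locus length. *Dmd*, whose retinal isoform is needed for transmission to bipolar cells, was at 0.09 and *Agrn* at 0.014, without a call, and both changed sign after median-ratio scaling, as *Lamb2* (0.18) did after quantile normalization. The count of 5 was 3 after median-ratio scaling and 1 after either correction (with 1 lower, *Dmd*, for locus length). It was also smaller without wild-type replicate 1 or 2, as it was over all genes.

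The enzymes that glycosylate dystroglycan, without which it does not bind pikachurin, had 5 of 10 tested genes higher and none lower (median 0.23), with *Gtdc2* and *Sgk196* unmatched by symbol. *Pomt2*, which starts the sugar chain, had 23.97 and 19.86 FPKM in *rd7* and 12.6 and 13.5 in wild-type (log2 fold change 0.74, SE 0.10). *Ispd* (0.59, SE 0.11), *Tmem5* (0.35, SE 0.06) and *Large* (0.30, SE 0.06) were higher too, with *Tmem5* at -0.0061 after correction for GC content and exonic length and *Large* at -0.13 after correction for locus length. *Pomt1*, *Pomgnt1*, *B3galnt2* and *B3gnt1* were not called and changed sign after median-ratio scaling. The count of 5 was 4 after median-ratio scaling, 1 after correction for GC content and exonic length and 3 after that for locus length. It was also smaller without wild-type replicate 1 or 2, as it was over all genes.

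The last list joins postsynaptic genes of bipolar cells with trans-synaptic genes of the photoreceptor side such as *Elfn1*, and 6 of its 12 tested genes were higher and none was lower (median 0.23), with *Lrit3* unmatched. After either correction 4 were higher and 1 was lower. *Nyx*, which encodes nyctalopin of the bipolar dendrite, had 8.06 and 8.69 FPKM in *rd7* and 2.99 and 3.49 in wild-type (log2 fold change 1.35, SE 0.10), the greatest value among the genes of the 6 lists. *Trpm1*, the transduction channel of ON bipolar cells, was at 65.4 and 58.8 in *rd7* and 36.7 and 35.6 in wild-type (0.78, SE 0.06), and *Grik1*, a kainate receptor of OFF bipolar cells, at 27.9 and 29.1 against 14.25 and 15.95 (0.91, SE 0.07). *Lrit1* (0.54, SE 0.05), *Rgs7* (0.32, SE 0.05) and *Gnao1* (0.21, SE 0.05) were higher as well, with *Rgs7* and *Gnao1* at -0.089 and -0.12 after correction for locus length. *Grm6*, the glutamate receptor of ON bipolar cells, had 58.5 and 42.7 FPKM in *rd7* and 42.8 and 40.5 in wild-type and was not called (0.26, SE 0.14, limma adjusted p = 0.181). *Rgs11* was at -0.23 without a call and was lower after median-ratio scaling (-0.38), and *Gpr179* (0.018) changed sign. *Elfn1*, the adhesion protein by which rods contact bipolar dendrites, was at -0.057 and was not called. Of the 9 bipolar cell markers 7 were higher in the same libraries (5 after median-ratio scaling), and *Grm6* and *Trpm1* belong to that marker list as well.

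**Figure D5:**
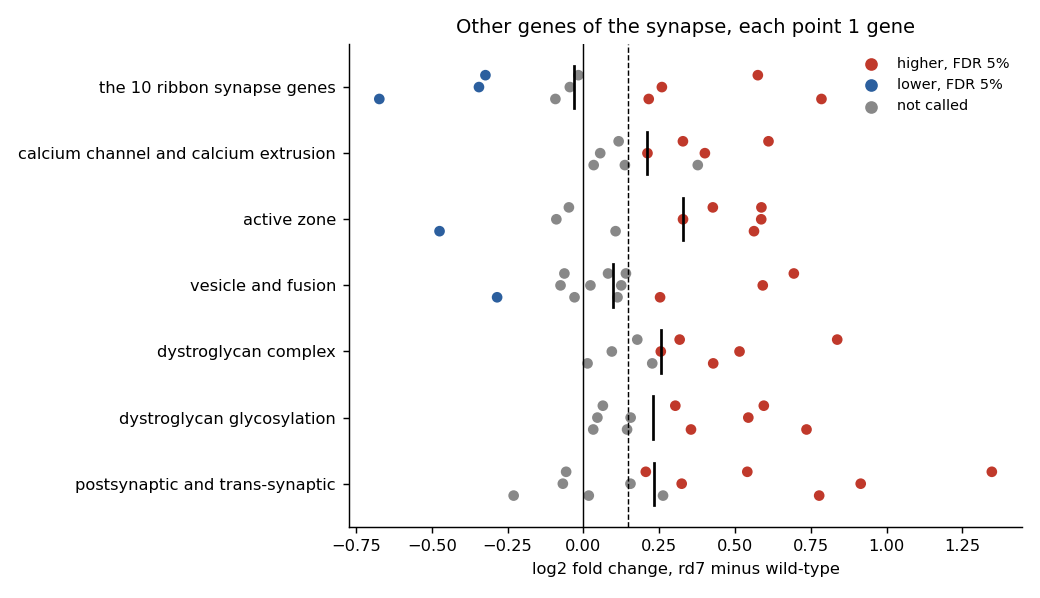
Log2 fold change (*rd7* minus wild-type) of the 10 ribbon synapse genes and of the tested genes of the 6 further lists, with 1 point per gene coloured by call at an FDR of 5%, a bar at each list's median, and the median of all genes, 0.15, as a dashed line. The medians of the 6 lists lie between 0.10 and 0.33, and that of the 10 ribbon synapse genes at -0.031.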

How the data were processed

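RNA was sequenced from whole retinas of 2 *rd7* and 2 wild-type pools of animals as single reads of 50 bp on 1 lane. The authors mapped the reads to mm9 with TopHat 1.4.1 and made the deposited FPKM with Cufflinks 1.3.0, a value for each gene in each library. These values correct for transcript length and depth, hold no read counts, and are not scaled for library composition. A second deposited table holds the authors' Cuffdiff comparison (pooled FPKM, fold changes, p-values and q-values) and was not used.

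The gene table lists 22095 loci, of which 262 had an estimate not marked as successful in some library and were left out. Where the mean FPKM reached 1, log2(FPKM + 0.1) was tested with limma 3.58.1 under R 4.3.3 (moderated variances with an expression trend, two-sided, Benjamini-Hochberg adjustment over all 12655 genes, FDR of 5%), without a block. The pseudocount makes changes of weakly expressed genes appear smaller. An exact permutation test of 2 against 2 libraries cannot give a p under 0.333 and was not used. Other values were computed in Python 3.11.15 with pandas 2.3.3. Depth was estimated from the lowest FPKM steps of genes with a single transcript of over 1500 bp, between 0.02 and 0.04 FPKM times kb of exon, and covers counting error only. Locus positions are those of the gene table, with the first base counted as 1. Exons, GC content and overlaps come from GENCODE M1 on mm9, which matched 93.8% of the loci, and start regions from RefSeq (GRCm38.p6).

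The members and all lists were chosen with earlier results of these data known. The genes named are the 10 members, the called genes of each of 6 synapse lists (calcium channel and calcium extrusion, active zone, vesicle and fusion, dystroglycan complex, dystroglycan glycosylation, postsynaptic and trans-synaptic) and those whose call or direction changes with scaling, up to 4 genes of each marker list (rod, cone, bipolar, amacrine, pigment epithelium) by mean FPKM, and *Nr2e3*. *Elfn1*, *Grm6*, *Hspg2*, *Opn1mw* and *Arr3* and the ratio pairs were added after values were seen. *Cngb1*, *Tfap2a* and *Tfap2b* had no usable value under their symbols. Some genes of the lists are counted but not reported by name here. The alternatives were pseudocounts of 1 and 0.01, a minimum mean FPKM of 5 or none, scaling by median ratios, quantile normalization, variances without a trend, the replicate number as a block, an FDR of 1%, spline corrections of each library for GC content with exonic length and for locus length, and fits without each library. Protein sequences were not used here.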

Additional observations from a re-analysis of the deposited data

How the results depend on the processing

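The limits are 2 libraries per genotype, each a pool, and FPKM without counts. *Cabp4*, *Ctbp2* and *Dag1* kept their direction and call in every refit and without each library. Pseudocounts of 1 and 0.01 and eBayes without a trend changed no member's call. A fit without a library leaves 1 sample in a genotype, which is assumed to vary like the other genotype. Where counts moved, the cause was not tested, except that an FDR of 1% is stricter and a mean FPKM of at least 5 tests fewer genes by construction.

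The replicate numbers did not pair the samples (correlation of the replicate differences across genes -0.027). With the replicate block the members stayed at 4 higher and 3 lower, beside 4508 of all 12655 genes higher and 1091 lower. In that fit 3 calcium and 6 complex genes were higher. A postsynaptic and trans-synaptic gene was lower where none had been.

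With median-ratio scaling, 2 members and 2 calcium, 5 active zone, 2 vesicle, 3 complex, 4 glycosylation and 5 postsynaptic genes were higher. Under it 4 members and 3 active zone, 2 vesicle and 1 postsynaptic genes were lower. With quantile normalization, 2 members and 2 calcium, 5 active zone, 2 vesicle, 3 complex, 4 glycosylation and 5 postsynaptic genes were higher. Under it 3 members and 3 active zone, 1 vesicle and 1 postsynaptic genes were lower. After correction for GC content and exonic length, 2 members were higher and 5 lower. In the lists 0 calcium, 2 active zone, 2 vesicle, 1 complex, 1 glycosylation and 4 postsynaptic genes were then higher. The genes lower were 1 each of the calcium, active zone, vesicle and postsynaptic lists. After correction for locus length, 2 members and 1 calcium, 0 active zone, 2 vesicle, 1 complex, 3 glycosylation and 4 postsynaptic genes were higher. With it 6 members and 4 calcium, 3 active zone, 3 vesicle, 1 complex and 1 postsynaptic genes were lower. That correction turned *Cacna2d4* to -0.080 and *Egflam* to -0.079.

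With no FPKM filter, 3 members were higher and 2 lower. In the lists 2 calcium, 3 active zone, 1 vesicle, 1 complex, 1 glycosylation and 5 postsynaptic genes were higher and 0 lower. Over all 21833 genes of that fit, 2249 were higher and 455 lower. An FDR of 1% left 3 members higher and 2 lower, beside 2582 of all 12655 genes higher and 446 lower. It left 2 calcium, 5 active zone, 2 vesicle, 3 complex, 4 glycosylation and 5 postsynaptic genes higher. It left 1 active zone and 1 vesicle gene lower. A mean FPKM of at least 5 left 4 members higher and 3 lower, beside 3765 of 9149 genes higher and 941 lower. With this limit 4 calcium, 4 active zone, 3 vesicle, 3 complex, 4 glycosylation and 6 postsynaptic genes were higher. Again 1 active zone and 1 vesicle gene were lower. Leaving out each library in turn, the median log2 fold change of the members ranged from -0.13 to 0.072 and that of all genes from 0.14 to 0.16. The numbers of members and list genes called moved between these fits, as they did over all genes. Genes higher ranged from 1 to 5 in the calcium, 2 to 5 in the active zone, 2 to 5 in the vesicle, 2 to 7 in the complex and 1 to 5 in the glycosylation list, and genes lower from 0 to 1 in the active zone, 0 to 3 in the vesicle and 0 to 1 in the postsynaptic list. Over these fits *Pclo* ranged from -0.16 to 0.13 and *Rims2* from -0.10 to 0.012, both above 0 only without *rd7* replicate 1.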
